A study of Mus musculus with 6 samples.

Results

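The inward rectifier and two-pore-domain potassium channel genes were followed in brain RNA of Kdm6a deficient and wild-type mice. They were taken as every row of the deposited count table whose symbol is Kcnj or Kcnk followed only by digits, which gave 29 of 43346 rows, 15 Kcnj and 14 Kcnk genes. The 6 libraries came from adult male mice of strain C57BL/6, 3 labelled Kdm6a deficient and 3 their wild-type littermates. Both groups came from crosses of females with a loxP-flanked Kdm6a and males with Thy1-Cre. The Thy1 promoter drives this Cre recombinase mainly in neurons, so that glia, vessels and choroid plexus are not its main targets. Kdm6a is an X-linked gene whose protein demethylates histone H3 at lysine 27. The labels name the tissue as brain, without a region, give the age as adult, and do not say whether wild-type mice carry Cre or a loxP allele. They name no litter, batch or day, so whether these differ between the genotypes is not known. The p-values set the difference between genotypes against the spread among the 3 mice of each group. For each gene, the fit draws that spread toward the trend over all genes tested. Because these are bulk samples, fewer cells of a type and less RNA per cell cannot be told apart.

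Inward rectifier (Kir) channels, encoded by Kcnj genes, pass potassium ions more easily into the cell than out of it. They hold the resting potential of neurons and glia, and their subfamilies are set apart by what opens them: G proteins, the ratio of ATP to ADP, or nothing beyond voltage and blocking ions. Two-pore-domain (K2P) channels, encoded by Kcnk genes, carry the background leak of potassium and respond to pH, stretch, heat, lipids or anaesthetics. In the brain, neurons carry most of the G protein-gated and classical Kir channels, astrocytes take up potassium through Kir4.1 (Kcnj10) and Kir5.1 (Kcnj16), pericytes carry Kir6.1 (Kcnj8), microglia THIK-1 (Kcnk13), and choroid plexus epithelium Kir7.1 (Kcnj13).

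The upstream sequences of 4 genes are shown because these genes form neighbouring pairs in the genome. Kcnj9 and Kcnj10 lie 11.9 kb apart on chromosome 1 and are both abundant, whereas Kcnj6 and Kcnj15 lie 260.0 kb apart on chromosome 16 and stood far apart in level. Each line is the 250 bases before the transcript start in RefSeq (GRCm38.p6), 5′ to 3′ on the gene's strand, with every CG dinucleotide in capitals. The windows are chr1:172329323-172329572 (minus strand) for Kcnj9, chr1:172340960-172341209 (plus) for Kcnj10, chr16:94997697-94997946 (minus) for the first of the starts listed for Kcnj6, and chr16:95257308-95257557 (plus) for Kcnj15.
Kcnj9: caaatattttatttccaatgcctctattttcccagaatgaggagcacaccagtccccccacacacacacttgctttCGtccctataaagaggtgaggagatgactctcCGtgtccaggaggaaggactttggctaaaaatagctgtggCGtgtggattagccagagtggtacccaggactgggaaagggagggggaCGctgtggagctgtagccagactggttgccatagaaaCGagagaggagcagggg
Kcnj10: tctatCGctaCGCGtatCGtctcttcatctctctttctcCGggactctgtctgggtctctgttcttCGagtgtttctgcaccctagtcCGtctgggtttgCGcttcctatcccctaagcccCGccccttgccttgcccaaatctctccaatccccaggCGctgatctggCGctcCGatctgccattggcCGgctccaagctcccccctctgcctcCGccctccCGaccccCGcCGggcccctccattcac
Kcnj6: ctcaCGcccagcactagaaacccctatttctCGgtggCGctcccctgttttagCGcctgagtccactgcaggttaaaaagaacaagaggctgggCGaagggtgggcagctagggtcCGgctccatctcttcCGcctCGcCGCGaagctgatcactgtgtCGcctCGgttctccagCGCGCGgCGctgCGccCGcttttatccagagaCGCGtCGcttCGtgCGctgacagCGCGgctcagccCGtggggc
Kcnj15: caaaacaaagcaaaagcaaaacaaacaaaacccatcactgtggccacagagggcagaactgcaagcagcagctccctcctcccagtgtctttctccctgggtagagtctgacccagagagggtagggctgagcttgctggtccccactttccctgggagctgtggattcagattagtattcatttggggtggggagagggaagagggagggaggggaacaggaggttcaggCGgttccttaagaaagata
The CG dinucleotide, which reads the same on both strands, occurred 5 times in the Kcnj9 window, 17 times in that of Kcnj10, 26 times in that of Kcnj6 and 1 time in that of Kcnj15. Of all 32851 listed promoters of the same length, 49.6% held at most 5 of them, 78.3% at most 17, 91.4% at most 26 and 18.8% at most 1, and 92.1% held at least 1. The table had 32 promoters for 24 of the 29 genes. The count did not order the genes by level: the window of Kcnk18, which had 0 or 1 count per library, held 5, as did that of the abundant Kcnj9.

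The Kdm6a transcript was lower in the 3 deficient mice, which checks the labels, and it was still present in them. It stood at 22.3, 25.2 and 25.2 CPM (counts per 1000000, scaled between libraries by TMM) in deficient mice 1, 2 and 3, against 34.5, 35.0 and 34.3 CPM in wild-type mice 1, 2 and 3. The log2 fold change, deficient over wild type, was -0.51 (SE 0.07, edgeR adjusted p = 0.00780), and the adjusted p was 0.05001 without wild-type mouse 2. Libraries held 18542590 to 24531408 counts. Wild-type library 3 stood apart by its anterior pituitary transcripts, since the 8 listed pituitary markers summed to 1408 CPM there, against 3.47 to 16.6 CPM in the other 5 libraries. None of the 12 cell type marker lists had a summed level that parted the genotypes without overlap, and the neuron, astrocyte, oligodendrocyte and microglia markers were all counted.

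Of the 29 channel genes 24 had enough counts to be tested, and none passed a false discovery rate of 5%. Over all 15030 genes tested, 7 passed, which is 0.0466%. Among the channel genes 14 log2 fold changes were negative and 10 positive, from -0.30 for Kcnk4 to 0.54 for Kcnj13, with a median of -0.04, against 0.00 over all genes tested. Unadjusted edgeR p-values under 0.05 were found for Kcnk4 and Kcnj9, 2 of 24 genes, beside 5.86% of all genes tested. DESeq2 also called 0 of the 24, with 1 unadjusted p under 0.05, but gave no adjusted p for Kcnj13, Kcnk5 and Kcnk15. In the authors' deposited table the smallest adjusted p of the 18 channel genes that have one was 0.9997.

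The intervals say how large a change these 6 mice could have hidden. The 95% confidence interval of the fold change stayed within 1.25-fold in either direction for 12 of the 24 genes, within 1.5-fold for 21 and within 2-fold for 22. Over all genes tested, 64.0% stayed within 1.25-fold and 94.6% within 2-fold. Kcnj13 and Kcnk15, which had 6 to 15 counts per library, were the channel genes whose interval reached beyond 2-fold, and for those depth set the limit. A p that misses the threshold does not show that the groups are equal.

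**Figure D1:**
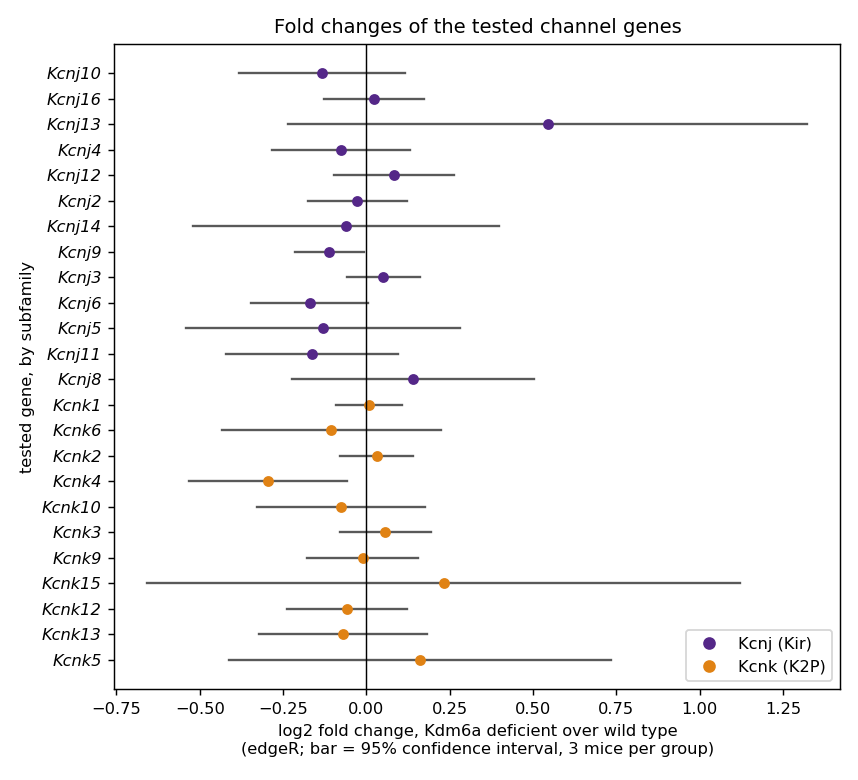
Log2 fold change (deficient over wild type, x axis) of the 24 tested channel genes (rows, by subfamily), with bars for the 95% confidence interval of the edgeR fit to 3 mice per group. All intervals except those of Kcnk4 and Kcnj9 cross 0, and those of Kcnj13 and Kcnk15 are the widest.

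Per kilobase of exon, the channel genes spanned a wide range of levels. Kcnj10 was highest at 92.2 CPM per kb over the 6 mice (82.7 to 105.2), above 97.7% of all tested genes. Next came Kcnk1 at 59.7 (57.6 to 60.6), Kcnj4 at 44.3 (39.3 to 50.6), Kcnj9 at 39.8 (37.7 to 43.3) and Kcnj3 at 21.4 CPM per kb (19.9 to 22.4). Kcnj4 and Kcnj9 overlapped in their ranges. Kcnk2, Kcnj16, Kcnk3 and Kcnj12 followed at 13.2, 12.4, 11.1 and 10.7 CPM per kb on average, and each of them overlapped the next in that order. In all, 18 of the 29 genes averaged at least 1 CPM per kb. The level depends on the length used for the genes with long alternative exons: by the longest transcript instead of all exons, Kcnj6 had 5.97 in place of 2.83 CPM per kb and Kcnk4 3.26 in place of 1.85.

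**Figure D2:**
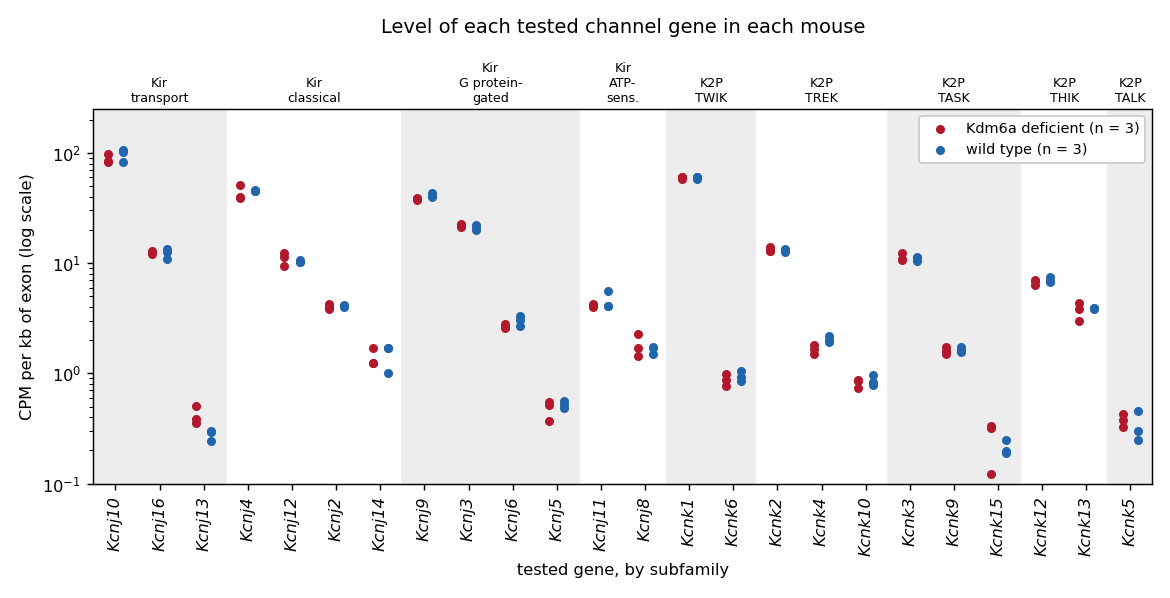
CPM per kb of exon (log scale) of the 24 tested channel genes in each mouse, by subfamily, with deficient mice in red and wild-type mice in blue. The points of both genotypes lie close together for each gene, while genes differ from about 0.2 CPM per kb (Kcnk15) to 92.2 (Kcnj10).

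The Kir channels that move potassium across glia and epithelia had log2 fold changes of -0.13 for Kcnj10, 0.02 for Kcnj16 and 0.54 for Kcnj13, none past 5% FDR. Kcnj10 encodes Kir4.1, the main potassium conductance of astrocytes, which oligodendrocytes also carry. It had 447, 456 and 523 CPM in deficient brains 1, 2 and 3, and 548, 448 and 569 CPM in wild-type brains 1, 2 and 3. The groups overlapped, with wild-type mouse 2 among the deficient mice. On the log2 scale, deficient differed from wild type by -0.13 (SE 0.10, 95% interval -0.38 to 0.12, edgeR adjusted p = 0.918). Without wild-type mouse 2 it was -0.24, and without wild-type mouse 3 it was -0.07, neither past the threshold.

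Kcnj16 encodes Kir5.1, which joins Kir4.1 in a channel that senses pH. It had 49.6, 47.5 and 50.1 CPM in the deficient brains, against 49.3, 42.5 and 52.7 CPM in the wild-type brains, a difference of 0.02 on the log2 scale (SE 0.07, edgeR adjusted p = 0.987). The ratio of Kcnj10 to Kcnj16 per kilobase was 6.57, 6.99 and 7.59 in deficient brains 1, 2 and 3, and 8.09, 7.67 and 7.86 in wild-type brains 1, 2 and 3. All 3 deficient mice lay below all 3 wild-type mice, by a small margin between deficient mouse 3 and wild-type mouse 2. This ratio was chosen after the values were seen and was not tested. The astrocyte markers, 10 of 10 counted and none past 5% FDR, summed to 5731 to 5956 CPM in the deficient brains and 5609 to 5991 CPM in the wild-type brains.

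Kcnj13 encodes Kir7.1 of the choroid plexus, the epithelium that makes cerebrospinal fluid. It was rare in these brains, with 10, 12 and 13 counts in deficient brains 1, 2 and 3, and 7, 7 and 9 counts in wild-type brains 1, 2 and 3. These are 0.446, 0.487 and 0.637 CPM against 0.311, 0.379 and 0.377 CPM, so every deficient mouse was above every wild-type mouse. Over all genes, 5.7% were higher without overlap, and Kcnj13 was the only channel gene among them. Its log2 fold change was 0.54 (SE 0.36, 95% interval -0.23 to 1.32, edgeR adjusted p = 0.899).

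The choroid plexus markers had the other sign. All 15 of 15 had log2 fold changes below 0 (median -0.19), none past 5% FDR. As markers of the same tissue, they are not 15 separate observations. Their summed level was 689, 964 and 1106 CPM in deficient brains 1, 2 and 3, and 857, 1045 and 1274 CPM in wild-type brains 1, 2 and 3, so the groups overlapped, and none of them was at 0. Ttr, which encodes the thyroid hormone carrier transthyretin, gave most of that sum, with 596 to 963 CPM in the deficient brains and 733 to 1129 CPM in the wild-type brains. Of the 1.27 kb of Kcnj13 exon, 623 bases also lie in an exon of Gigyf2 on the opposite strand, which had 1694 to 2269 counts per library (log2 fold change -0.05, SE 0.05, edgeR adjusted p = 0.936). Its part in the Kcnj13 counts was not tested.

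**Figure D3:**
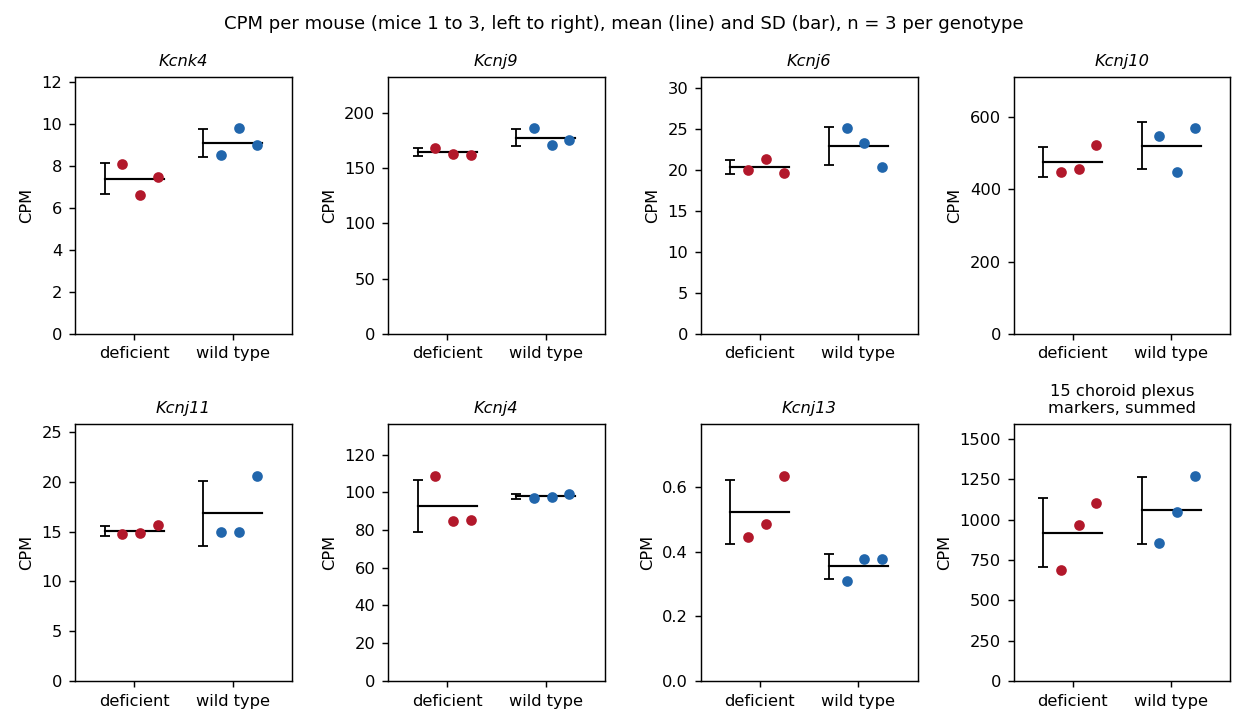
CPM (y axis, from 0) of 7 channel genes and of the summed choroid plexus markers in each mouse, with deficient mice left of wild-type mice, mice 1 to 3 from left to right, lines for means and bars for the SD (n = 3). Kcnk4 and Kcnj9 are lower and Kcnj13 is higher in all 3 deficient mice, while the other 5 panels overlap.

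Kcnj15, which encodes Kir4.2 of kidney and other epithelia, and Kcnj1, which encodes ROMK of the kidney, were at or near 0. Kcnj15 had 3, 0 and 1 counts in the deficient brains and 0, 2 and 3 in the wild-type brains. Kcnj1 had no count in the deficient brains, and 1, 0 and 1 in the wild-type brains. At these depths a count of 0 allows up to 3 counts, or 0.122 to 0.162 CPM, by counting error alone. Kcnj15 thus stood at 0.011 CPM per kb where its neighbour Kcnj6 stood at 2.83, and Kcnj1 at 0.00431 CPM per kb where its neighbour Kcnj5, 28.1 kb away on chromosome 9, stood at 0.499.

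The 4 G protein-gated Kir genes encode the GIRK channels, which open when G protein subunits released by receptors such as GABA-B bind them and so quiet the neuron. Of these 4, 3 had log2 fold changes below 0 and none passed 5% FDR (median -0.12). Kcnj9 (GIRK3) had 168, 163 and 162 CPM in deficient brains 1, 2 and 3, against 186, 171 and 175 CPM in wild-type brains 1, 2 and 3. All deficient mice lay below all wild-type mice. The log2 fold change was -0.11 (SE 0.05, 95% interval -0.22 to -0.01, unadjusted p = 0.0365 and edgeR adjusted p = 0.812), which puts it at 92.6% of wild type. Kcnj9 and Kcnk4 were the 2 channel genes lower without overlap, where 5.49% of all tested genes were lower in that way. The neighbour of Kcnj9, Kcnj10 on chromosome 1, overlapped between the genotypes.

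Kcnj6 (GIRK2), the subunit of midbrain dopamine neurons and many other neurons, had 20.0, 21.3 and 19.7 CPM in the deficient brains, and 25.1, 23.3 and 20.4 CPM in the wild-type brains. Deficient mouse 2 lay above wild-type mouse 3, so the groups overlapped. On the log2 scale, deficient differed from wild type by -0.17 (SE 0.08, 95% interval -0.34 to 0.01, edgeR adjusted p = 0.856), and -0.25 (unadjusted p = 0.00731, adjusted p = 0.369) without wild-type mouse 3, the library with pituitary transcripts. Without wild-type mouse 1 it was -0.10 (edgeR adjusted p = 0.9999). Markers of monoamine neurons of midbrain and hindbrain, 9 of 11 tested, summed to 79.4 to 106.8 CPM in the deficient brains and 89.6 to 96.6 CPM in the wild-type brains. Their part in the Kcnj6 values was not tested.

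Kcnj3 (GIRK1), the partner subunit that most neuronal GIRK channels contain, had 117, 113 and 111 CPM in the deficient brains, against 111, 115 and 104 CPM in the wild-type brains. Its log2 fold change was 0.05 (SE 0.05, edgeR adjusted p = 0.937). Kcnj5 (GIRK4), best known from the heart, was low at 1.74, 2.56 and 2.40 CPM in the deficient brains and 2.26, 2.44 and 2.64 CPM in the wild-type brains (log2 fold change -0.13, SE 0.19). Kcnj3 overlaps the antisense gene Gm26794 over 1621 exonic bases, and that gene had 81 to 117 counts per library. In all, 8 of the channel genes share exonic bases with a gene on the opposite strand. Without a known strand setting, reads in those shared bases cannot be told apart from reads of the partner. The shared part ranged from 172 of 4288 exonic bases in Kcnj9 to 623 of 1270 in Kcnj13.

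Within the GIRK subfamily Kcnj9 was the largest part in every brain, and Kcnj3 the next. By CPM per kb, Kcnj9 made up 60.6% ± 0.29 of the summed level in the deficient brains and 62.7% ± 1.61 in the wild-type brains (SD, n = 3 each). Kcnj3 made up 34.5% ± 0.24 in the deficient brains and 31.9% ± 1.49 in the wild-type brains, Kcnj6 4.22% and 4.55%, and Kcnj5 under 1% in every mouse. The ratio of Kcnj9 to Kcnj3 per kilobase was 1.75, 1.75 and 1.77 in deficient brains 1, 2 and 3, and 2.04, 1.81 and 2.06 in wild-type brains 1, 2 and 3. It was lower in all 3 deficient mice, with wild-type mouse 2 the nearest to them. Like the other ratios, it was chosen after the values were seen and not tested. Of the 5 ratios computed, the other 3 overlapped between the genotypes: Kcnj10 to Aqp4 was 1.97 to 2.37 in the deficient brains and 2.22 to 2.34 in the wild-type brains, Kcnj11 to Kcnj8 1.75 to 2.96 and 2.33 to 3.75, and Abcc8 to Abcc9 3.26 to 3.99 and 2.85 to 3.53.

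**Figure D4:**
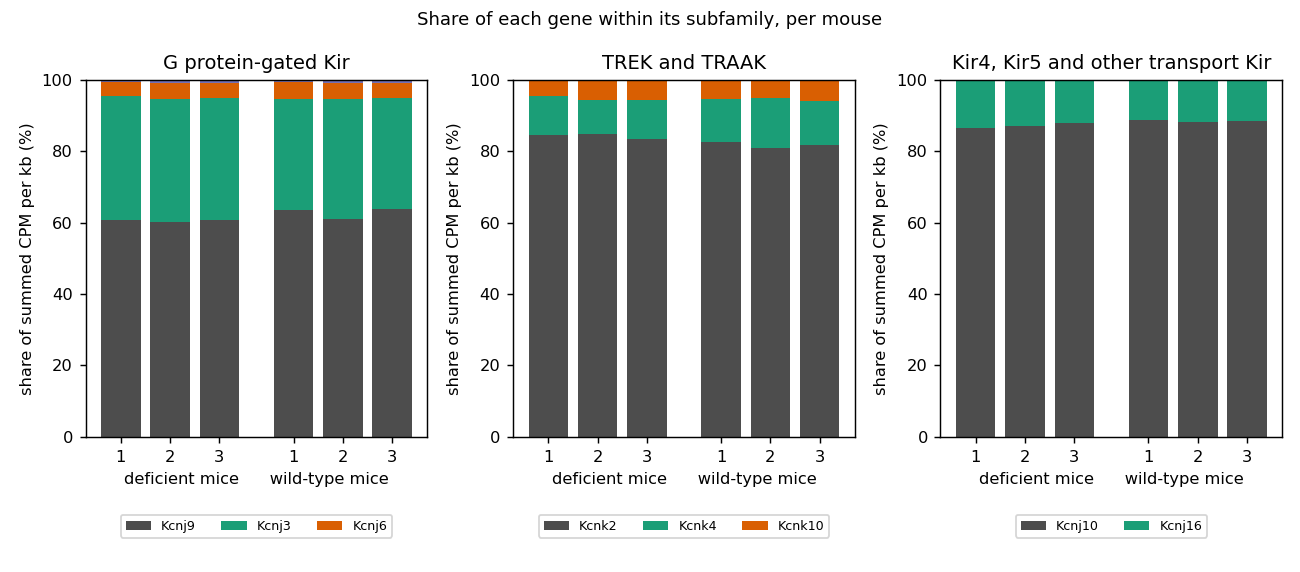
Share (%) of each gene in the summed CPM per kb of its subfamily, per mouse, deficient mice left and wild-type mice right. Genes under 1% in every mouse are drawn without a legend entry. Kcnk4 takes 9.68% to 10.9% of its subfamily in the deficient brains and 12.1% to 14.1% in the wild-type brains.

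Genes that act with GIRK channels, 35 of 35 tested, had 15 negative and 20 positive values (median log2 fold change 0.02), and 0 passed 5% FDR (6 of 35 had an unadjusted edgeR p under 0.05, beside 5.86% of all genes tested, and DESeq2 called 0). Gng4, a G protein gamma subunit, had 70.6, 63.2 and 58.4 CPM in the deficient brains, against 55.9, 49.2 and 48.5 CPM in the wild-type brains. Its log2 fold change was 0.32 (SE 0.08, edgeR adjusted p = 0.362). Adora1, the adenosine A1 receptor that couples to these channels, differed by -0.14 on the log2 scale (SE 0.05, edgeR adjusted p = 0.613), with 194.7 ± 1.79 CPM in the deficient brains and 214.5 ± 6.29 CPM in the wild-type brains (SD, n = 3 each). Rgs6, which speeds the closing of GIRK channels, differed by -0.12 on the log2 scale (SE 0.05, edgeR adjusted p = 0.771).

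The classical Kir2 genes, which set the resting potential of neurons and muscle, had values on both sides of 0 and none passed. Kcnj4 (Kir2.3), abundant in forebrain neurons, had 109, 84.7 and 85.2 CPM in deficient brains 1, 2 and 3, and 96.8, 97.6 and 99.4 CPM in the wild-type brains. Deficient mouse 1 was the highest of all 6 and deficient mice 2 and 3 the lowest, while the wild-type mice lay close together. The log2 fold change was -0.08 (SE 0.09, edgeR adjusted p = 0.945), and -0.21 (unadjusted p = 0.00150, adjusted p = 0.329) without deficient mouse 1. It was -0.01 without deficient mouse 2 and -0.02 without deficient mouse 3. The authors' deposited table gives no p for this gene.

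Kcnj12 (Kir2.2) had 26.0, 31.2 and 33.7 CPM in the deficient brains, against 28.0, 28.3 and 29.5 CPM in the wild-type brains. Here deficient mouse 1 was the lowest of the 6, the opposite of its place for Kcnj4, and the log2 fold change was 0.08 (SE 0.08, edgeR adjusted p = 0.937). It was 0.18 without that mouse (edgeR adjusted p = 0.818) and 0.00347 without deficient mouse 3. Kcnj2 (Kir2.1) differed on the log2 scale by -0.03 and Kcnj14 (Kir2.4) by -0.06, with adjusted p of 0.981 and 0.988 by edgeR. Kcnj14 has a copy, Gm5522, that is 99.1% identical over 1242 bases and had 0 counts in each library, so its own count is uncertain.

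The ATP-sensitive Kir genes couple the membrane potential to metabolism, together with the sulphonylurea receptors Abcc8 and Abcc9. Kcnj11 (Kir6.2), the pore subunit of neurons and endocrine cells, had 14.7, 14.9 and 15.7 CPM in the deficient brains, against 14.91, 14.95 and 20.62 CPM in wild-type brains 1, 2 and 3. The third wild-type mouse alone stood apart, and the rest of the mice lay within 14.7 to 15.7 CPM. On the log2 scale, deficient differed from wild type by -0.16 (SE 0.12, edgeR adjusted p = 0.903), and 0.02 without wild-type mouse 3. That library is the one with pituitary transcripts, as Gh, which encodes growth hormone, had 998.1 CPM there and 0.433 to 5.88 CPM in the other 5 libraries. Their part in the Kcnj11 value was not tested.

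Kcnj8 (Kir6.1), the pore subunit of pericytes and smooth muscle, had 5.846, 4.303 and 3.672 CPM in the deficient brains, against 4.35, 4.44 and 3.81 CPM in the wild-type brains, with overlap. Its log2 fold change was 0.14 (SE 0.17, edgeR adjusted p = 0.945). Without deficient mouse 1 it was -0.07. Markers of pericytes and smooth muscle, 10 of 10 tested and none past 5% FDR, summed to 251.7 to 266.8 CPM in the deficient brains and 228.4 to 251.9 CPM in the wild-type brains. Of the receptors, Abcc8 had 38.8 ± 0.75 CPM and 38.5 ± 1.86 CPM (deficient and wild type, SD, n = 3 each; log2 fold change 0.01), and Abcc9 11.3 ± 1.08 CPM and 12.4 ± 0.80 CPM (log2 fold change -0.14, SE 0.10), with edgeR adjusted p of 0.990 and 0.902.

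Among the K2P genes, Kcnk4 had the smallest p of all 24 tested channel genes. It encodes TRAAK, a mechanosensitive leak channel of the nodes of Ranvier on myelinated axons. It had 8.12, 6.62 and 7.49 CPM in deficient brains 1, 2 and 3, against 8.52, 9.80 and 8.99 CPM in wild-type brains 1, 2 and 3. Each deficient mouse lay below each wild-type mouse. The log2 fold change was -0.30 (SE 0.11, 95% interval -0.53 to -0.06, unadjusted p = 0.0179 and edgeR adjusted p = 0.771), which puts it at 81.4% of wild type, and it ran from -0.37 to -0.22 when each mouse was left out in turn. Kcnk4 shares 587 exonic bases on the same strand with Catsperz, counted under the older symbol Tex40 with 44 to 67 counts per library (log2 fold change -0.17, SE 0.17, edgeR adjusted p = 0.936). RefSeq lists that symbol for both genes, so the split of the counts between them is uncertain.

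The relatives of Kcnk4 had values nearer 0, a difference that was not tested. Kcnk2 encodes TREK-1, a leak channel of neurons and astrocytes that stretch and volatile anaesthetics open. It had 69.5, 64.2 and 63.7 CPM in the deficient brains, against 64.7, 62.4 and 66.1 CPM in the wild-type brains (log2 fold change 0.03, SE 0.05, edgeR adjusted p = 0.967). Kcnk10, which encodes TREK-2, had 6.47, 7.47 and 7.69 CPM in the deficient brains and 7.37, 6.88 and 8.45 CPM in the wild-type brains (log2 fold change -0.08, SE 0.12, edgeR adjusted p = 0.966). By CPM per kb Kcnk4 made up 10.5% ± 0.71 of this subfamily in the deficient brains and 12.8% ± 1.10 in the wild-type brains (SD, n = 3 each), and Kcnk2 84.3% ± 0.72 and 81.8% ± 0.87.

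The most abundant K2P gene also had the narrowest interval of the 24 tested channel genes. Kcnk1, which encodes TWIK-1 of neurons and astrocytes, had 134.8, 130.7 and 135.5 CPM in the deficient brains, against 128.8, 135.3 and 134.8 CPM in the wild-type brains. On the log2 scale, deficient differed from wild type by 0.01 (SE 0.05, 95% interval -0.09 to 0.11, edgeR adjusted p = 0.990), which puts it at 100.5% of wild type (95% interval 93.8% to 107.7%). Kcnk6 (TWIK-2) was low, with 3.17 to 4.06 CPM in the deficient brains and 3.55 to 4.33 CPM in the wild-type brains (log2 fold change -0.10, SE 0.15, edgeR adjusted p = 0.962), and Kcnk7 had 1 to 4 counts in the deficient brains and 3 to 6 in the wild-type brains.

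The TASK genes encode acid-sensitive leak channels. Kcnk3 (TASK-1), found in motor neurons, brainstem and cerebellum among other sites, had 43.6, 42.5 and 49.4 CPM in the deficient brains, against 44.8, 41.5 and 43.8 CPM in the wild-type brains (log2 fold change 0.06, SE 0.06, edgeR adjusted p = 0.940). Kcnk9 (TASK-3), strong in cerebellar granule cells and expressed from the maternal allele in mouse brain, had 18.5, 21.4 and 19.7 CPM in the deficient brains, against 19.9, 21.1 and 19.2 CPM in the wild-type brains (log2 fold change -0.01, SE 0.08, edgeR adjusted p = 0.992). Markers of cerebellar granule cells summed to 948.4, 1140 and 1178 CPM in deficient brains 1, 2 and 3. In wild-type brains 1, 2 and 3 they summed to 934.4, 997.6 and 996.8 CPM. Of these 10 markers, 9 had positive log2 fold changes and none passed 5% FDR. An unadjusted edgeR p under 0.05 was found for 6 of the 10, beside 5.86% of all genes tested. Their part in the Kcnk3 and Kcnk9 values was not tested. Kcnk15 (TASK-5) had 6 to 15 counts in the deficient brains and 7 to 12 in the wild-type brains (log2 fold change 0.23, SE 0.42, 95% interval -0.66 to 1.12, edgeR adjusted p = 0.969).

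The remaining K2P genes gave no call either. Kcnk12 (THIK-2) differed on the log2 scale by -0.06 (SE 0.08, edgeR adjusted p = 0.960), with 13.3 ± 0.78 CPM in the deficient brains and 13.9 ± 0.66 CPM in the wild-type brains (SD, n = 3 each). Kcnk13 (THIK-1), the main potassium channel of resting microglia, had 11.8, 13.4 and 9.21 CPM in the deficient brains, against 11.98, 12.19 and 12.13 CPM in the wild-type brains. Deficient mouse 3 was the lowest and deficient mouse 2 the highest of the 6, and the log2 fold change was -0.07 (SE 0.12, edgeR adjusted p = 0.967). The microglia markers, 10 of 10 tested and none past 5% FDR, summed to 322.6, 314.9 and 284.1 CPM in deficient brains 1, 2 and 3, and 332.1, 305.0 and 316.6 CPM in the wild-type brains, with deficient mouse 3 again the lowest, and their part in the Kcnk13 values was not tested. Kcnk5 (TASK-2) had 25, 36 and 26 counts in the deficient brains and 19, 19 and 37 in the wild-type brains, with a log2 fold change of 0.16 (SE 0.27, 95% interval -0.41 to 0.73, edgeR adjusted p = 0.967). Its neighbour Kcnk16 (TALK-1), a channel of the pancreas that lies 79.6 kb away on chromosome 14, had 0 counts in each library. Kcnk18 (TRESK), a channel of sensory ganglia, had 0 or 1 count per library.

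Genes that clear potassium and water beside Kir4.1 had mostly negative values of small size. Of 16 tested, 12 were negative and 4 positive, the median log2 fold change was -0.02, and 0 passed 5% FDR (2 of 16 had an unadjusted edgeR p under 0.05, beside 5.86% of all genes tested, and DESeq2 called 0). Over all genes tested, 7394 values were negative and 7636 positive. Slc12a5, the chloride exporter KCC2 of neurons, differed by -0.09 on the log2 scale (SE 0.04, edgeR adjusted p = 0.841). Aqp4, the water channel of astrocyte endfeet, differed by -0.02 on the log2 scale (SE 0.07, edgeR adjusted p = 0.985).

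**Figure D5:**
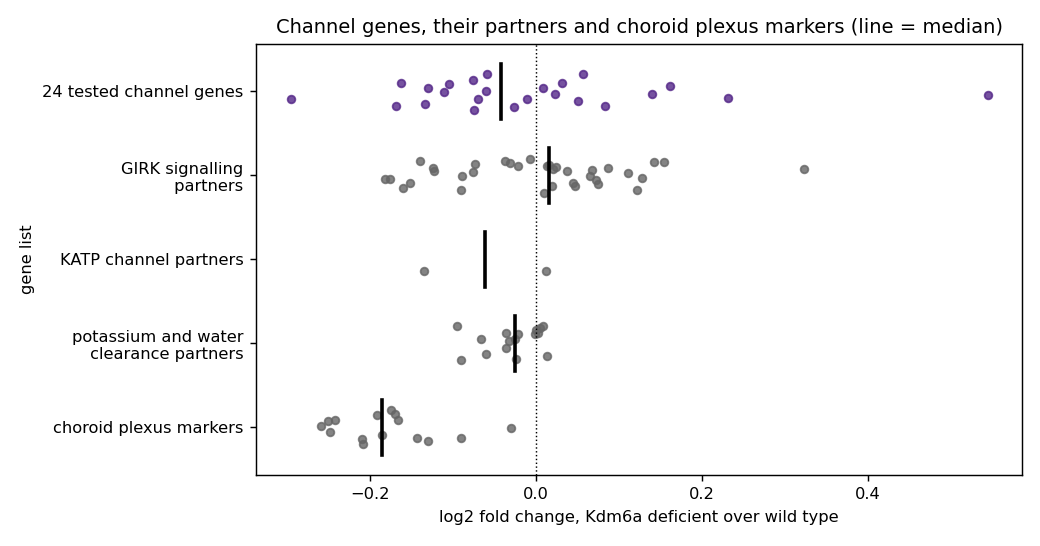
Log2 fold change (deficient over wild type, x axis) of each tested channel gene, of the genes in 3 lists of channel partners and of the choroid plexus markers (rows), with a line at each median. The choroid plexus markers all lie below 0, while the channel genes lie on both sides with Kcnj13 farthest to the right.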

How the data were processed

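RNA of 6 mouse brains, 3 Kdm6a deficient and 3 wild type, was extracted (Qiagen RNeasy Mini) and sequenced from TruSeq RNA libraries, according to the labels. The authors deposited whole-number read counts per gene for each mouse. GRCm38 and DESeq2 are named in the submitters' processing notes, while aligner, counter, annotation and strandedness were not given in the sources used. Per the file headers, the same table holds DESeq2 output of the authors: a mean normalised count per gene (a signal over the 6 libraries), a log2 fold change with its error, a score (the test statistic) and p-values. The deposited log2 fold changes run wild type over deficient, and of the deposited p-values 27 belong to the channel genes.

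Counts were fitted with edgeR 4.0.16 (R 4.3.3; TMM scaling, filterByExpr, robust quasi-likelihood test, 2-sided, Benjamini-Hochberg adjustment over all 15030 genes tested), with genotype as the only term. Log2 fold changes are deficient over wild type. CPM are TMM-scaled, and CPM per kb uses the union of exons in GENCODE (GRCm38). The fit was tested on simulated data. Alternatives were DESeq2 1.42.0, limma 3.58.1 (voom), other scalings, filters and lengths, the mouse number as a block, and each mouse left out. Rows with a number for a symbol (27, holding 0.35% of counts) stayed in. Intervals and limits of a count of 0 cover counting error or the spread between mice only.

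Members, lists and tests were chosen with earlier results of these data known. All channel genes are accounted for. Full statistics were given for the 5 with the smallest p in each direction, the highest of each subfamily per kilobase, and Kcnj8, Kcnj10, Kcnj13 and Kcnj16. Further genes named were the 3 with the smallest p in each partner list, Abcc8, Abcc9, the gene with the smallest p in each marker list, and Kdm6a. Ttr, Gh, Aqp4 and Hba-a2, and the genes that overlap a channel gene, were added after their values were seen. Some genes that this rule names are not reported here.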

Additional observations from a re-analysis of the deposited data

How the results depend on the processing

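No Kcnj or Kcnk gene passed 5% FDR under any of the 12 alternatives, nor 10% in the fit as reported. The smallest adjusted p was 0.329 (edgeR, Kcnj4 without deficient mouse 1), and DESeq2 gave none for Kcnj13, Kcnk5 and Kcnk15. The median log2 fold change of these genes stayed negative in all 12, between -0.06 and -0.01. Over all genes the count past 5% FDR was 20 by DESeq2, 25 without the low-count filter, and 15 with the replicate block, against 7 as reported, and it ran from 3 (without wild-type mouse 2) to 17 (without wild-type mouse 3) when 1 mouse was left out, with 12 without deficient mouse 1 and 15 without deficient mouse 3. The cause was not tested. Over all genes, mice with the same number did not deviate together (correlations -0.000634, 0.0810 and 0.0480 for mice 1, 2 and 3). Whether the numbers mark a shared litter, batch or day is not known, and these correlations cannot decide it for single genes. With the mouse number as a block, 1 gene of the partner lists passed, Gng4 (log2 fold change 0.32, edgeR adjusted p = 0.0290), and 0 channel genes. The Kdm6a log2 fold change ran from -0.55 to -0.46 with 1 mouse left out, and its edgeR adjusted p was 0.05001 without wild-type mouse 2. With 1 mouse left out the sign turned for 14 channel genes, whose log2 fold changes ranged from -0.0709 to 0.00775 for Kcnj2, -0.249 to 0.0183 for Kcnj5, -0.0674 to 0.273 for Kcnj8, -0.247 to 0.0150 for Kcnj11, -0.284 to 0.0716 for Kcnj14, -0.0586 to 0.0922 for Kcnj16, -0.0151 to 0.0218 for Kcnk1, -0.0128 to 0.0528 for Kcnk2, -0.0108 to 0.0973 for Kcnk3, -0.0246 to 0.467 for Kcnk5, -0.0723 to 0.0375 for Kcnk9, -0.138 to 0.0144 for Kcnk10, -0.200 to 0.0617 for Kcnk13 and -0.0201 to 0.594 for Kcnk15. The sign held in every alternative that tested them for the other 10 (a filter of at least 1 CPM on average left 22), among them Kcnk4, Kcnj9, Kcnj6, Kcnj10 and Kcnj13. Depth limits Kcnj13, Kcnk15 and the 5 untested genes.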

Other observations

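Cell type markers that the channel results did not need are given here by the gene with the smallest p in each list, plus Hba-a2. None of them passed 5% FDR. The blood list had 10 of 10 positive log2 fold changes, with a summed level of 73.4 to 95.1 CPM in deficient mice and 60.7 to 74.7 CPM in wild-type mice. As markers of the same tissue, these are not 10 separate observations. Hba-a1, an alpha chain of haemoglobin, had 12.2, 15.2 and 14.2 CPM in deficient mice and 10.3, 10.8 and 9.25 CPM in wild-type mice (log2 fold change 0.47, SE 0.10, edgeR adjusted p = 0.247). Hba-a2, also an alpha chain, overlapped, with 9.64, 4.47 and 3.77 CPM in deficient mice and 3.55, 7.20 and 6.90 CPM in wild-type mice (log2 fold change 0.03, SE 0.49). How reads were split between these genes was not tested. Among cerebellar granule cell markers, Zic1, a transcription factor of these cells, had 106.9, 126.0 and 129.5 CPM in deficient mice and 102.7, 100.7 and 100.2 CPM in wild-type mice (log2 fold change 0.25, SE 0.07, edgeR adjusted p = 0.435). Dbh, which makes noradrenaline, had 4.51, 3.33 and 4.55 CPM in deficient mice and 2.66, 3.30 and 2.51 CPM in wild-type mice (log2 fold change 0.55, SE 0.17, edgeR adjusted p = 0.603).

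The neuron markers summed to 9207 to 9674 CPM in deficient mice and 9383 to 9497 CPM in wild-type mice, and Stmn2, a microtubule regulator of growing axons, had 496.4 to 509.6 CPM and 457.4 to 462.8 CPM (deficient and wild type; log2 fold change 0.12, SE 0.04, edgeR adjusted p = 0.603). The oligodendrocyte markers summed to 8143 to 9052 CPM in deficient mice and 8564 to 9580 CPM in wild-type mice, with Cldn11 of myelin at a log2 fold change of -0.09 (SE 0.05). The endothelium markers summed to 322.8 to 344.3 CPM in deficient mice and 307.3 to 349.3 CPM in wild-type mice, with Itm2a at 0.13 (SE 0.07), and those of meninges to 218.2 to 277.1 CPM and 222.2 to 249.5 CPM, with Slc22a6 at 0.37 (SE 0.11). C1qb, a complement subunit of microglia, had a log2 fold change of -0.27 (SE 0.09), Pdgfrb of pericytes 0.16 (SE 0.07), Slc1a3 of astrocytes 0.05 (SE 0.04) and Cldn2 of choroid plexus -0.24 (SE 0.15).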
